A study of Mus musculus with 2 samples.

Results

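The genes of the SCL, LYL1, LMO2 and E-protein complex were examined in untransformed mouse myeloid progenitors. The 9 genes, Tal1, Lyl1, Lmo2, Lmo4, Ldb1, Tcf3, Tcf4, Tcf12 and Cbfa2t3, were taken by name from a table of 23988 genes, and each matched 1 row exactly. The series gives 1 group of 2 libraries, replicate 1 and replicate 2. Both came from bone marrow of C57BL/6 mice that had been stripped of lineage-positive cells and kept for 7 days in culture with IL3, SCF and IL6, with no further treatment. The title of the series names leukaemia cells with HOXA9 and MEIS1, which were not analysed here, so no treated or mutant group stands against these cells. No label tells whether separate mice, pools of mice or separate cultures gave these libraries, so the spread between them may be technical.

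SCL, encoded by Tal1, and its close relative LYL1 are basic helix-loop-helix proteins of blood cells that bind DNA as dimers with an E protein. The E proteins are widely expressed and are encoded by Tcf3 (E2A), Tcf4 (E2-2) and Tcf12 (HEB). LMO2 does not bind DNA itself and joins such a dimer to LDB1 and often to a GATA factor, while ETO2, encoded by Cbfa2t3, brings corepressors to the complex. The assembled complex is best known from blood stem cells and from erythroid, megakaryocyte and mast cells. ID proteins pair with E proteins and keep them off DNA.

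Values are RPKM, read numbers scaled by gene length and library size, as the authors deposited them. Levels of different genes can be set side by side on this scale, though only if the gene lengths behind it, which no source here states, are right. All 9 genes reached 1 RPKM or more in both libraries, the level called detected below. The background share was 43.5% of all genes and 62.3% of genes above 0 in either library. The median of the 9 genes was 42.7 RPKM in replicate 1 and 36.7 RPKM in replicate 2, against 4.19 and 4.75 RPKM for all genes above 0 in either library and 14.5 and 14.3 RPKM for all detected genes. A gene of 1 kb with 3 reads, the limit that a count of 0 allows, would stand at 0.10 RPKM in either library. The smallest read numbers that fit the 9 genes ranged from 448 for Tcf4 to 5407 for Lyl1 in replicate 1. That limit and these numbers rest on library sizes inferred from the table, which may be off by a whole multiple. No test was run, since the smallest p that an exact two-sided sign-flip permutation over 2 libraries allows is 0.5. A difference between genes is called beyond the spread where both libraries gave the same sign and the mean of the log2(RPKM + 1) differences exceeded 2 SD.

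**Figure D1:**
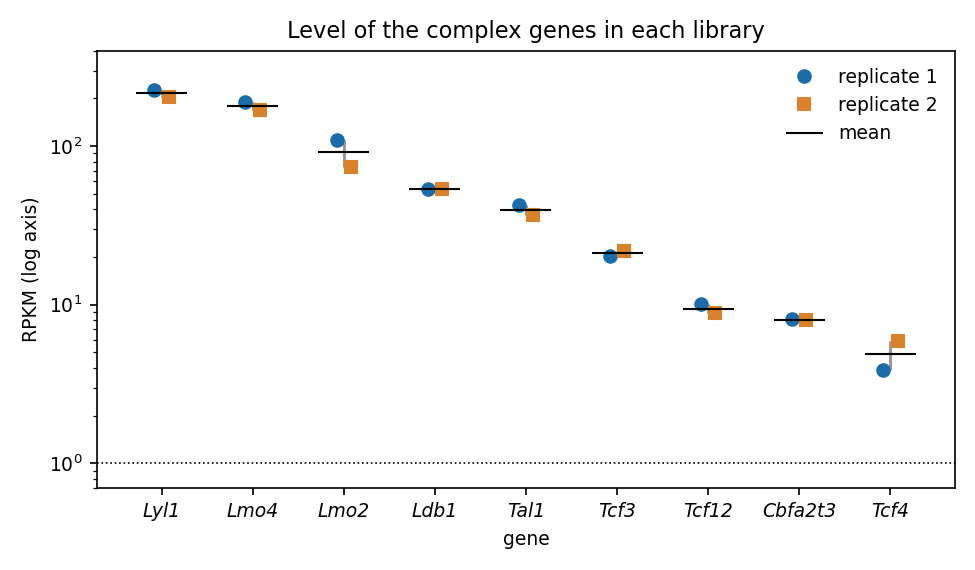
RPKM of the 9 complex genes on a log axis, with 1 point for each library, a bar for the mean of both and a dotted line at 1 RPKM. The genes run from Lyl1, at 226 and 204 RPKM, down to Tcf4, at 3.86 and 5.88 RPKM, in the same order in both libraries.

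The order of the levels was Lyl1, Lmo4, Lmo2, Ldb1, Tal1, Tcf3, Tcf12, Cbfa2t3 and Tcf4, and all 36 pairs of genes stood in this order in both libraries. The difference was beyond the spread for 33 of the 36 pairs, and for 6 of the 8 pairs of neighbours. The order was taken from the means of these same libraries, and no share over pairs of other genes was computed. Whether such counts are particular to the complex is therefore not known. The neighbours Lmo2 and Ldb1, with a difference of 0.74 ± 0.41 (SD, n = 2), were not separated by this rule. Neither were Cbfa2t3 and Tcf4, at 0.65 ± 0.38, nor Tcf12 and Tcf4, at 0.85 ± 0.47. Because each SD rests on 2 values, a small SD may itself be chance.

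Among the helix-loop-helix partners of the E proteins, the message for LYL1 far exceeded that for SCL. Lyl1 stood at 226 RPKM in replicate 1 and 204 RPKM in replicate 2, a mean of 215 ± 15.5 RPKM (SD, n = 2). It was at rank 402 of all genes, above 97.6% of the genes that exceeded 0. Tal1 stood at 42.7 and 36.7 RPKM, with a mean of 39.7 ± 4.23 RPKM and rank 2482. The 2 values of each gene lay close together, and the 2 genes did not overlap. Lyl1 was 5.30 times Tal1 in replicate 1 and 5.57 times in replicate 2, a difference of 2.41 ± 0.05 on the log2(RPKM + 1) scale (SD, n = 2), which was beyond the spread. Lyl1 made up 84.1% and 84.8% of the summed RPKM of the pair. No gene in a list of 107 other transcription factor genes of blood cells, ID genes included, had a higher mean than Lyl1, whereas 36 of them exceeded Tal1. The list does not hold every transcription factor gene. Atf1, which is not in it, had a mean log2(RPKM + 1) of 8.01, above 7.76 for Lyl1.

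The promoter sequences of this pair are shown because the genes encode related proteins yet stood apart in level. They come from RefSeq on GRCm38.p6, which is not the mm9 build named in the submitters' processing notes, and cover the 250 bases before an annotated start. Capitals mark matches, on either strand, to the E-box CANNTG bound by helix-loop-helix dimers, to GATAA, the core of GATA sites, or to CCGGAA, a core of ETS sites.
Lyl1 (chr8:84701207-84701456, plus strand): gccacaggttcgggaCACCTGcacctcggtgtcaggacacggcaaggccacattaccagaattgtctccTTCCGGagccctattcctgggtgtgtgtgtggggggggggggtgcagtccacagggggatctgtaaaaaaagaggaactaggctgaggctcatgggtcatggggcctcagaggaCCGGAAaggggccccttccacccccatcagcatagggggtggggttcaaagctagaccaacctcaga
Tal1, first start (chr4:115056176-115056425, plus strand): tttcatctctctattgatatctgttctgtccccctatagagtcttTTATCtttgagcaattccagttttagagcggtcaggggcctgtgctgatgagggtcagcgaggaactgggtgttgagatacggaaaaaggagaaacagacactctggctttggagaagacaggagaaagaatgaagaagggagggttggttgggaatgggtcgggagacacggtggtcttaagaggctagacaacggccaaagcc
Tal1, second start (chr4:115057561-115057810, plus strand): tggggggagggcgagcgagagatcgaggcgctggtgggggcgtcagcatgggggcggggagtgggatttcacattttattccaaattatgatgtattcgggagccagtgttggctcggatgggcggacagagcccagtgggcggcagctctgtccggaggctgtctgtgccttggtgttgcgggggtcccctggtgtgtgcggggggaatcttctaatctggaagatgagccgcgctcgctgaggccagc
The Lyl1 window held 1 E-box, 2 matches to CCGGAA and no GATAA. The first Tal1 window held 1 match to GATAA, and the second held none of the letters searched. Of 32851 such windows of all genes, 66.2% held CANNTG, 22.6% held GATAA and 12% held CCGGAA. These matches describe the letters only, and binding was not measured in these cells.

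Other tissue-restricted relatives of SCL were near or at 0. Of 12 such genes, none was detected, 6 were listed at 0 in both libraries, and the highest, Atoh8, stood at 0.807 and 0.419 RPKM. Tal2, another member of the SCL family, stood at 0.115 and 0.119 RPKM, Ascl2 at 0.00370 and 0.158 RPKM and Nhlh1 at 0.0583 and 0.0202 RPKM. Msc, Twist1, Twist2, Hand1, Hand2 and Tcf21 were the genes listed at 0. The list had a median of 0 RPKM in each library, against 4.19 and 4.75 RPKM for all genes above 0 in either library.

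The LIM-only genes were also high, and Lmo4 exceeded Lmo2. Lmo2, the bridging factor of the complex, stood at 110 RPKM in replicate 1 and 73.8 RPKM in replicate 2, a mean of 91.9 ± 25.6 RPKM (SD, n = 2) at rank 1090. Lmo4, which also binds LDB1 but is expressed far beyond blood, stood at 190 and 168 RPKM, a mean of 179 ± 15.2 RPKM at rank 494. The 2 genes did not overlap in any library. Lmo2 minus Lmo4 was -0.98 ± 0.28 (SD, n = 2), which was beyond the spread. Ldb1, whose protein holds LMO and GATA factors together and can pair with itself, stood at 53.5 and 53.9 RPKM and was the steadiest of the 9 genes. Lmo2 was 2.06 times Ldb1 in replicate 1 and 1.37 times in replicate 2. Lmo2 and Lmo4 together were 5.61 and 4.49 times Ldb1, a difference of 2.31 ± 0.23 (SD, n = 2) that was beyond the spread.

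Of 7 relatives and partners of these genes, 5 were detected and 2, Lmo3 and Ldb2, were listed at 0 in both libraries. Lmo1, a relative of Lmo2 known as an oncogene of T cell leukaemia, was detected at 20.2 and 17.5 RPKM, below each value of Lmo2 and Lmo4. Rlim, an E3 ligase that acts on LDB1 and LIM proteins, led the list at 74.7 and 60.0 RPKM. The single-stranded DNA binding proteins that stabilise LDB1 were lower, with Ssbp3 at 14.2 and 17.9 RPKM, Ssbp4 at 12.7 and 12.4 RPKM and Ssbp2 at 7.76 and 6.90 RPKM. The list had medians of 12.7 and 12.4 RPKM.

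By RPKM the E-protein genes were, with Cbfa2t3, the lower part of the complex, and Tcf3 led them. This order may depend on the gene lengths used, which are not known. In the GENCODE vM21 annotation, the joined exons cover 27382 bases for Tcf4 and 15529 for Tcf12. They cover 4039 bases for Tcf3 and 1800 for Lyl1. Tcf3 (E2A) stood at 20.4 RPKM in replicate 1 and 21.8 RPKM in replicate 2, a mean of 21.1 ± 0.98 RPKM (SD, n = 2). Tcf12 (HEB) stood at 10.04 and 8.87 RPKM, a mean of 9.45 ± 0.83 RPKM. Tcf4 (E2-2), best known in plasmacytoid dendritic cells, was the lowest of the 9 genes at 3.86 and 5.88 RPKM, a mean of 4.87 ± 1.43 RPKM. The values of the 3 genes did not overlap. Tcf3 exceeded Tcf12 by 1.08 ± 0.18 and Tcf4 by 1.93 ± 0.29 on the log2(RPKM + 1) scale (SD, n = 2), both beyond the spread. Tcf3 held 59.5% and 59.6% of the summed RPKM of the E-protein genes, Tcf12 29.3% and 24.3%, and Tcf4 11.2% and 16.1%. The rows of Tcf7l1 and Tcf7l2, Wnt pathway genes that have gone by the names TCF3 and TCF4, were separate, at 0.00870 and 0.0181 RPKM and at 1.26 and 5.14 RPKM.

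The summed message of SCL-type partners, and that of their ID antagonists, exceeded the sum over E proteins. Tal1 and Lyl1 together reached 269 RPKM in replicate 1 and 241 RPKM in replicate 2, against 34.3 and 36.5 RPKM for Tcf3, Tcf4 and Tcf12 together. The difference was 2.81 ± 0.17 (SD, n = 2), beyond the spread, and the RPKM ratios were 7.84 and 6.60. The 4 ID genes together reached 237 and 401 RPKM, which was 6.92 and 10.98 times the E-protein sum. That difference was 3.09 ± 0.47 (SD, n = 2), also beyond the spread. Id1 stood at 126 and 161 RPKM, Id2 at 103 and 229 RPKM, and Id3 at 8.64 and 11.4 RPKM. Id4 was listed at 0 in replicate 1 and stood at 0.0364 RPKM in replicate 2. Id2 was the sole ID gene past 1.5-fold between the libraries, with a log2 ratio of -1.14 for replicate 1 over replicate 2. Of all genes with a mean of 1 RPKM or more, 15.6% passed that fold. These are message levels that rest on the unstated gene lengths, and protein was not measured.

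**Figure D2:**
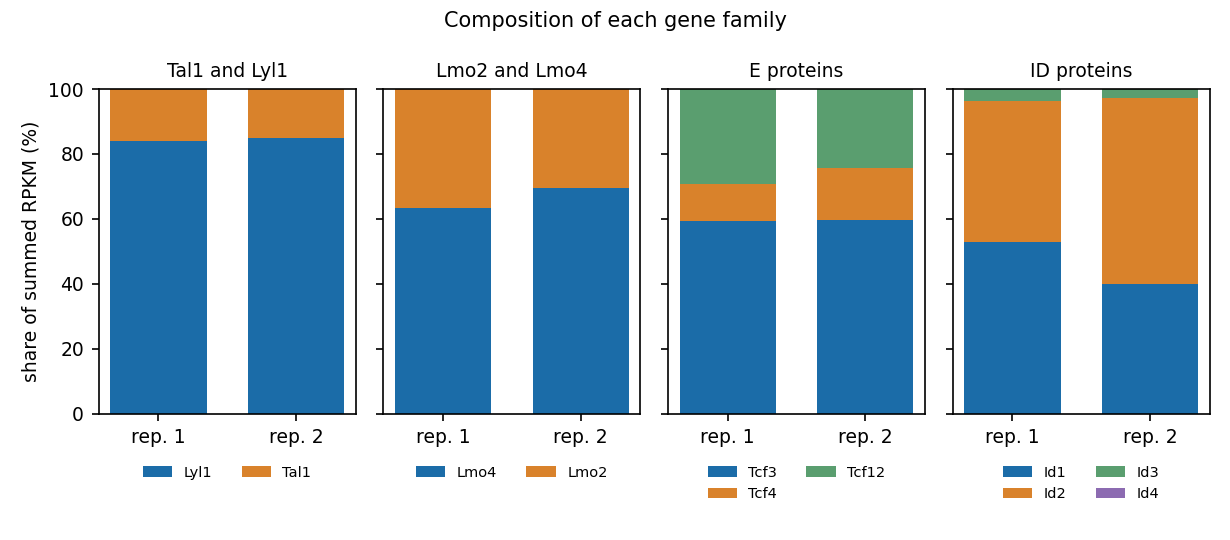
Share of the summed RPKM, in percent, that each gene held within its family, with 1 bar for each library. Lyl1 held 84.1% and 84.8% of its pair and Tcf3 59.5% and 59.6% of the E-protein sum, while Id2 held 43.4% of the ID sum in replicate 1 and 57.1% in replicate 2.

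Cbfa2t3, which encodes the corepressor ETO2, was low within the complex but was the highest gene of its family. It stood at 8.16 RPKM in replicate 1 and 7.95 RPKM in replicate 2, a mean of 8.06 ± 0.15 RPKM (SD, n = 2), above 58.4% of the genes that exceeded 0. Its relative Cbfa2t2 stood at 2.98 and 3.16 RPKM, and Runx1t1, the gene of ETO itself, at 0.0636 and 0.00945 RPKM. Cbfa2t3 exceeded Cbfa2t2 by 1.15 ± 0.07 (SD, n = 2), which was beyond the spread. The corepressors that ETO proteins work with were expressed at higher levels than Cbfa2t3. Of the 11 genes in the list of ETO relatives and corepressors 10 were detected, Runx1t1 being the exception. Hdac1, a histone deacetylase, led at 522 and 451 RPKM, followed by Irf2bp2, a partner of ETO2, at 145 and 142 RPKM. Hdac2 stood at 51.1 and 38.2 RPKM and Hdac3 at 40.9 and 41.0 RPKM. The list had medians of 25.5 and 23.9 RPKM. All 6 genes of E-protein coactivators and associated factors were detected, with list medians of 14.5 and 13.4 RPKM. Sp1, a general transcription factor, led at 38.8 and 41.6 RPKM, ahead of the acetyltransferase genes Kat2a at 24.7 and 21.3 RPKM and Ep300 at 16.2 and 14.8 RPKM.

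The window before the first annotated start of Cbfa2t3 is given beside those of Lyl1 and Tal1, with the same build and marking. It held the most E-boxes of the windows searched for the complex genes.
Cbfa2t3, first start (chr8:122699110-122699359, minus strand): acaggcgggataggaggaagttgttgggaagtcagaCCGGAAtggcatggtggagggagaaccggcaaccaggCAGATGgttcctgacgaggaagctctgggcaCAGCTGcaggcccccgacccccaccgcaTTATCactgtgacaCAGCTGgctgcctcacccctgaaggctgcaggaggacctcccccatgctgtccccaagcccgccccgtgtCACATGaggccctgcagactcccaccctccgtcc
It held 4 matches to CANNTG, 3 of which also match CAGNTG, a form that SCL dimers favour, with 1 GATAA and 1 CCGGAA. At least 3 matches were found in 12.2% of all windows for CANNTG and in 3.25% for CAGNTG, and this window was chosen after its matches were seen. Windows were searched for 7 of the 9 genes, 15 in all, and GATAA occurred in 3 of these, in Tal1, Ldb1 and Cbfa2t3. The search for the complex genes left out windows on 1 chromosome, which the windows of all genes kept. No window of Lmo2 or Tcf4 was included, and the reason was not checked for each gene.

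**Figure D3:**
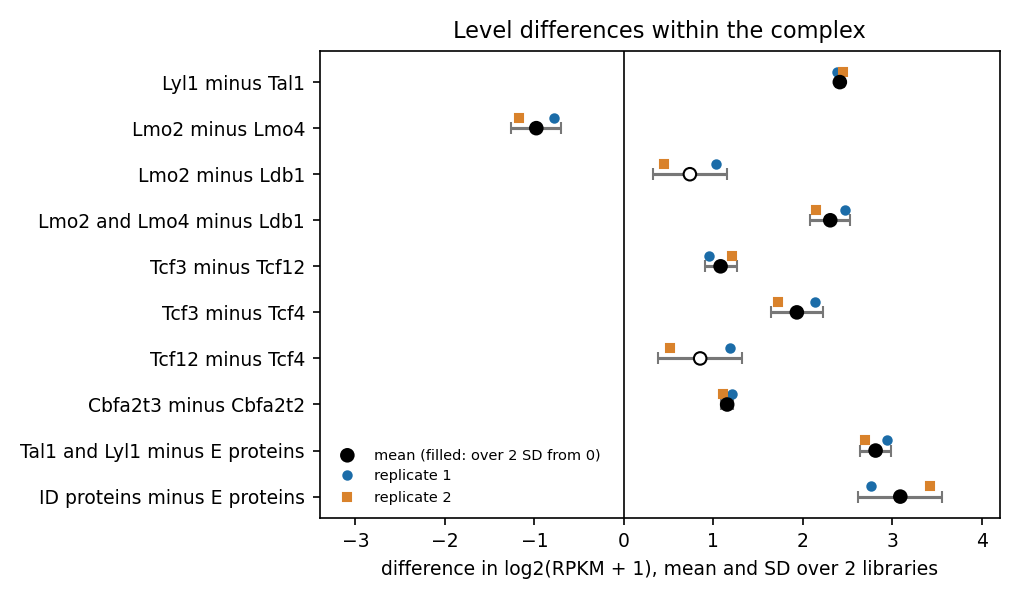
Differences in log2(RPKM + 1) between complex genes or summed groups, with a small point for each library, a large point for the mean and a bar for the SD over 2 libraries. Filled means lie more than 2 SD from 0, and the open ones are Lmo2 minus Ldb1, at 0.74 ± 0.41, and Tcf12 minus Tcf4, at 0.85 ± 0.47.

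The factors that join the complex in other blood cells were mostly expressed. Of 10 GATA, RUNX, ETS and GFI1 partner genes 9 were detected, and Gata3, a T cell factor, stood at 0.278 and 0.0964 RPKM. Gata2, the partner in stem, progenitor and mast cells, stood at 119 and 158 RPKM, and Gata1, the partner in erythroid, megakaryocyte and mast cells, at 42.9 and 51.7 RPKM. Gfi1, a transcriptional repressor present in granulocyte precursors, stood at 130 and 126 RPKM. Its relative Gfi1b, at 2.58 and 3.07 RPKM, and Zfpm1, at 2.42 and 3.27 RPKM, were the lowest of the detected partners. Cbfb stood at 61.9 and 54.6 RPKM and its DNA-binding partner Runx1 at 50.6 and 51.6 RPKM. Runx1 thus lay beside Ldb1. The list had medians of 29.8 and 32.3 RPKM, and none of its 9 genes with a mean of 1 RPKM or more passed 1.5-fold between the libraries. The background was 15.6% of the 10896 genes with such a mean, and with 9 genes a count of none is near it.

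Genes that the complex is known to bind or regulate in other lineages fell into high and low members. Of 12 such genes 7 were detected, a share between the background of 43.5% of all genes and that of 62.3% of genes above 0. The list medians were 2.20 and 3.74 RPKM. Gata1, given above, led by its mean, and Nfe2, a factor of platelet formation, stood at 50.1 and 37.8 RPKM, above Gata1 in replicate 1 and below it in replicate 2. Itga2b, the integrin alpha IIb of platelets and mast cell progenitors, stood at 29.9 and 39.5 RPKM, and Hhex, a homeobox gene downstream of LMO2 in thymocytes, at 32.7 and 32.6 RPKM. Kit, whose ligand SCF was in the culture, stood at 21.2 and 26.2 RPKM. The genes that were not detected are erythroid. Among them Klf1, the erythroid Kruppel-like factor, stood at 0.748 and 1.47 RPKM. Slc4a1 (band 3), Alas2 (erythroid heme synthesis) and Epb42 (protein 4.2, listed as Epb4.2) did not exceed 0.134 RPKM in any library. Of 8 erythroid markers only Tfrc, the transferrin receptor of all dividing cells, was detected. At 594 and 441 RPKM it made up most of the summed level of that list, 596 and 445 RPKM.

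Few genes that E2A drives in lymphoid cells were detected. The detected share of genes that E2-2 drives in plasmacytoid dendritic cells lay between the 2 background shares. These were 43.5% of all genes and 62.3% of genes above 0 in either library. Of 12 E2A targets of lymphoid cells 2 were detected, Notch1 at 44.8 and 63.7 RPKM and Il7r, the interleukin 7 receptor, at 3.90 and 9.36 RPKM. Foxo1, a regulator of B cell development, was below 1 RPKM in replicate 1 and stood at 0.990 and 2.28 RPKM. The list had medians of 0.0702 and 0.179 RPKM. Rag1 and Rag2, which rearrange antigen receptor genes, and the B cell factors Ebf1 and Pax5 were listed at 0 in both libraries. Of 12 targets of E2-2 in plasmacytoid dendritic cells 7 passed 1 RPKM in both libraries, and the list medians were 2.57 and 3.03 RPKM. Among them were Bst2 at 23.0 and 26.3 RPKM, Irf8, also a monocyte factor, at 7.91 and 29.6 RPKM, Bcl11a at 4.39 and 6.94 RPKM, and Tlr7, a receptor of viral RNA, at 5.27 and 4.19 RPKM. The defining genes of that cell type were at or near 0, with Siglech at 0 and 0.150 RPKM, Ccr9 at 0.0684 and 0.0474 RPKM and Spib at 0.108 and 0.560 RPKM. Markers of neutrophil and monocyte progenitors were all detected, 8 of 8, as were 7 of 8 mast cell and basophil markers. The exception, Tpsb2, stood at 0.666 RPKM in replicate 1 and 80.9 RPKM in replicate 2.

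**Figure D4:**
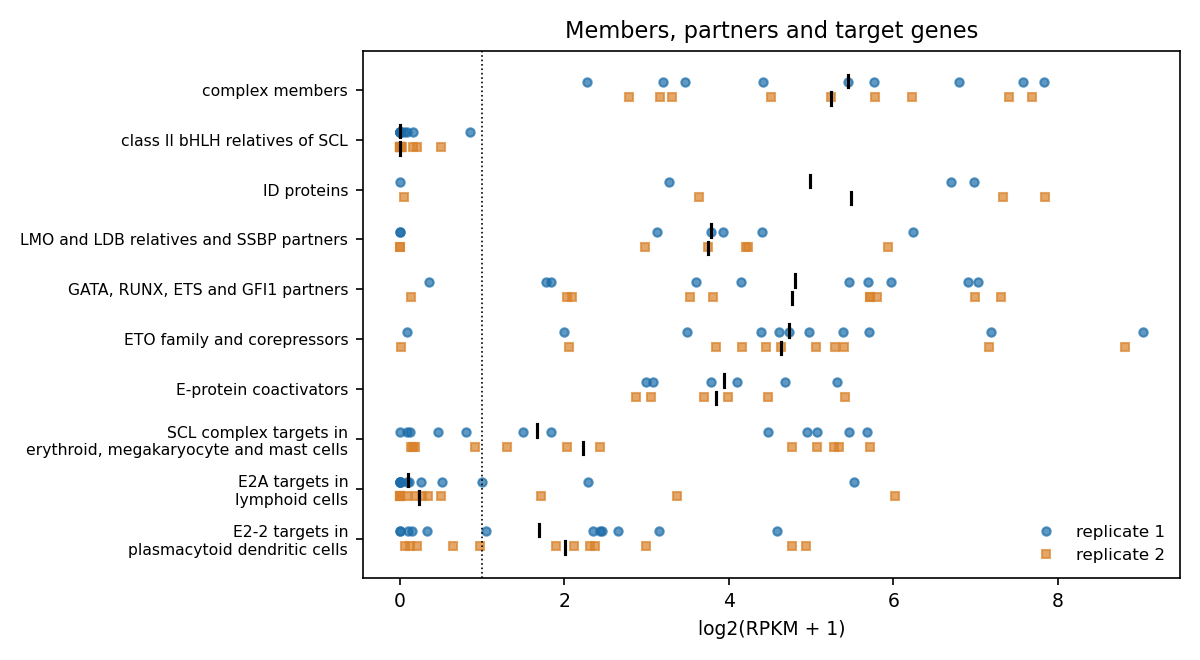
Levels on the log2(RPKM + 1) scale of the 9 complex genes and of the 9 lists of relatives, partners and targets, with 1 point for each gene in each library. Short vertical lines mark the median of a list in each library on this scale, and the dotted line is 1 RPKM. The SCL relatives lie near 0, while the complex genes lie at 3.86 RPKM or more.

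The 9 complex genes stood within 1.5-fold between the libraries with a pseudocount of 1, and Tcf4 passed that fold with a pseudocount of 0.1. The log2 ratio of RPKM + 1 for replicate 1 over replicate 2 passed 1.5-fold in 0 of the 9 genes, against a background of 15.6% of the 10896 genes with a mean of 1 RPKM or more, 4.26% higher and 11.3% lower in replicate 1. With 9 genes, a count of 0 or 1 is near that background. The median ratio was 0.15 for the 9 genes and 0.05 for all these genes, with 6 of the 9 genes higher in replicate 1. Lmo2 had a ratio of 0.57, and 83.5% of all genes had a smaller one in absolute value. Tcf4 had a ratio of -0.50. Without a pseudocount the ratio of Tcf4, -0.61, was the wider one, against 0.58 for Lmo2. The 95% interval of the ratio without a pseudocount, computed from the smallest read numbers that fit, ran from 0.50 to 0.65 for Lmo2 and from -0.79 to -0.43 for Tcf4. Such intervals cover counting error only and rest on inferred library sizes that may be off by a whole multiple. They excluded 0 for 6 of the 9 genes and included it for Ldb1, Tcf3 and Cbfa2t3. Larger read numbers would give narrower intervals, so that 0 was included may come from the use of the smallest ones. The intervals were not computed for genes outside the complex, so no background share stands beside this count. The ratios of RPKM + 1 of the 7 complex genes other than Lmo2 and Tcf4 lay between -0.09 for Tcf3 and 0.21 for Tal1.

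Summed levels of marker genes were also unequal between the libraries. The 8 markers of neutrophil and monocyte progenitors summed to 5648 RPKM in replicate 1 and 4373 RPKM in replicate 2, in the direction of Lmo2, but none of the 8 passed 1.5-fold, and Csf3r and Cebpa had ratios of -0.31 and -0.11, in the other direction. The 6 markers of plasmacytoid dendritic cells summed to 1.24 and 4.17 RPKM, in the direction of Tcf4, with 1 of 6 detected. That gene, Cox6a2, at 1.07 and 3.32 RPKM, made up most of both sums. Ccr9, at 0.0684 and 0.0474 RPKM, went the other way. Markers of mast cells and basophils summed to 1095 and 2677 RPKM and those of megakaryocytes, 6 of 7 detected, to 53.8 and 98.2 RPKM, whereas Tal1 was slightly higher in replicate 1. Of the 8 mast cell and basophil markers 5 were past 1.5-fold lower in replicate 1. So were 5 of the 6 megakaryocyte markers with a mean of 1 RPKM or more. None of either list was past 1.5-fold higher. Of the 10896 genes with a mean of 1 RPKM or more, 11.3% were lower and 4.26% higher in replicate 1 by this fold. The marker lists were chosen with earlier results of these data known. The widest were Tpsb2, at 0.666 and 80.9 RPKM, and Cma1, at 3.55 and 211 RPKM. The part of these cell types in the ratios of the complex genes was not tested. In such bulk RNA, fewer cells of a type and less RNA per cell cannot be told apart.

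**Figure D5:**
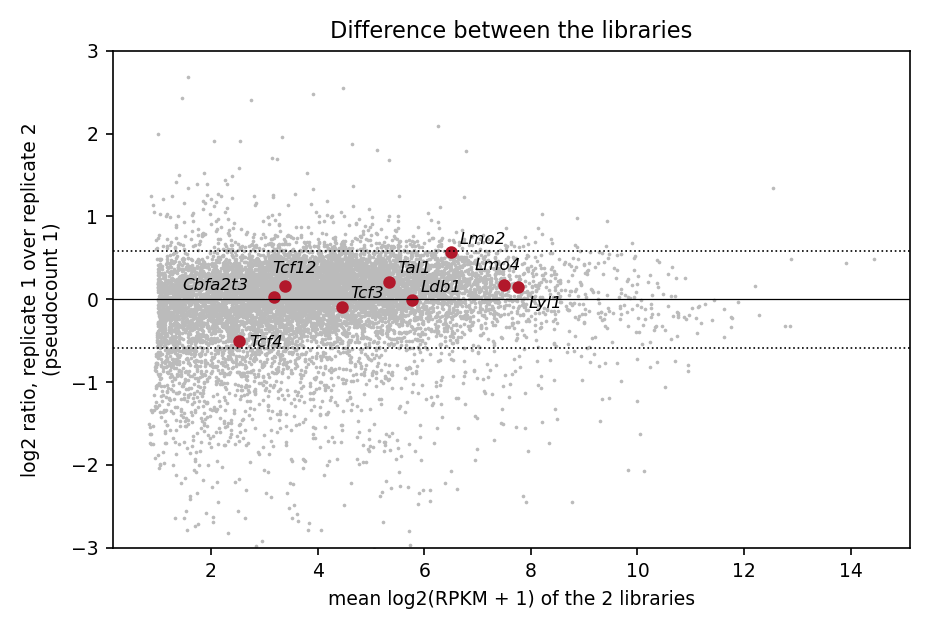
Log2 ratio of RPKM + 1 for replicate 1 over replicate 2 against the mean log2(RPKM + 1), with grey points for genes with a mean of 1 RPKM or more and red points for the 9 complex genes. Dotted lines mark 1.5-fold, and 29 genes lie outside the plotted range. All 9 complex genes lie between the dotted lines, Lmo2 at 0.57 and Tcf4 at -0.50 nearest to them.

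Among the 107 other transcription factor genes, those with levels nearest to a complex gene were found by the Euclidean distance of log2(RPKM + 1) over the 2 libraries. With 2 libraries such likeness says that levels are alike and no more. Xbp1, at 174 and 184 RPKM, and Cebpb, at 139 and 169 RPKM, were nearest to both Lyl1 and Lmo4, at distances of 0.40 and 0.75 from Lyl1. E2f1, at 103 and 82.0 RPKM, and Nfe2l2, at 125 and 99.8 RPKM, were nearest to Lmo2. Myb and Runx1 were nearest to Ldb1, with distances of 0.09 and 0.10. Nfe2 and Ikzf1, at 35.8 and 33.3 RPKM, were nearest to Tal1. Tcf3 lay next to Max and Etv6, Tcf12 next to Erg and Irf1, Cbfa2t3 next to Irf9 and Arid5a, and Tcf4 next to Runx3 and Tfeb.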

How the data were processed

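RNA-seq libraries of 2 samples of 1 group were analysed. Per the labels' protocols, they were prepared with an Illumina TruSeq kit from RNeasy-purified, DNase-treated total RNA. The authors deposited RPKM values with 1 column for each library, and the columns were assigned by name. The submitters' processing notes name Trimmomatic 0.32, TopHat2, HTSeq and edgeR with build mm9. No source here states the settings, annotation, gene lengths or strand use, so reads from overlapping genes may be shared. In GENCODE vM21, exons of genes on the other strand cover 3.84% of those of Ldb1, 3.52% of Cbfa2t3 and 0.222% of Lyl1.

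Of 24015 rows, 27 with names in the form of dates, 0.109% of the summed RPKM in each library, were left out. Effective library sizes of 29941063 and 28793666 reads were read from the steps between RPKM values, with a scale shared by 63 genes of 1321 tried (tolerance 1e-06). The next most frequent scale, at 58 genes, was nearly as frequent, and whether it is a multiple of the first was not checked. These sizes may include a normalisation factor or be off by a whole multiple, which would change read numbers, the limit of a count of 0 and the intervals. Read numbers are the smallest that fit them. Intervals are exact Clopper-Pearson ones.

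Members, lists and rules were chosen with earlier results of these data known. Named genes were the 9 members, up to 4 leading genes of each list, genes at 0 or behind a count of 5 or fewer, and the 2 nearest transcription factor genes, and markers where a statement needed them. Beyond this rule, Kit, Ssbp2, Tcf7l1, Tcf7l2, Atf1 and, among the partners, Gata1, Gfi1b and Zfpm1 were chosen after their values were seen. A gene that this rule takes is not reported here. The log2 scale used a pseudocount of 1. Python 3.11.15 with numpy 2.4.6, pandas 2.3.3 and scipy 1.17.1 was used. Alternatives were another pseudocount, 2 other scalings, other minimum levels and fold thresholds, and each library alone.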

Additional observations from a re-analysis of the deposited data

How the results depend on the processing

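No contrast changed sign under any alternative run. Both libraries gave the same sign for each contrast, so leaving out 1 library could not change it. The 10 contrasts kept their side of the 2 SD rule with a pseudocount of 0.1 and under both other scalings, whereas the rule cannot be applied to 1 library alone. Each scaling multiplies a whole library by 1 factor, so it can move a difference within a library only through the pseudocount. The scalings therefore hardly test these contrasts. The median level of the 9 genes moved to 6.03 on the TPM scale, against 5.34, because each library is multiplied there by about 1.63. The count of genes past 1.5-fold between libraries was 1, Tcf4, with a pseudocount of 0.1, against 0, since a pseudocount of 1 shrinks ratios of low genes. All 9 genes were detected under both other scalings and at a minimum of 0.1 RPKM, and 8 at a minimum of 5 RPKM, where Tcf4 is lost. With each library alone, Lyl1 minus Tal1 lay between 2.38 and 2.45, Lmo2 minus Ldb1 between 0.45 and 1.03, Tcf12 minus Tcf4 between 0.52 and 1.18, and ID minus E proteins between 2.76 and 3.42. The library difference has no value with 1 library. No paired analysis was possible because there is 1 group. With 2 libraries, the spread itself is poorly known.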
